A study of Mus musculus with 16 samples.

Results

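The 10 transcripts described here are known targets of the serum response factor SRF or of the co-activator YAP: Acta2, Actg2, Cnn1, Tagln, Myl9 and Tpm1, which encode parts of the contractile actin apparatus, and Ccn1, Ccn2, Ankrd1 and Thbs1, most of which are standard readouts of YAP activity. They were chosen by name, with earlier results of these data known. Their probes were found through the RefSeq accession that each probe carries (older names are Cyr61 for Ccn1 and Ctgf for Ccn2). All 10 were on the array, with 14 probes, and all 10 were among the 15053 genes tested. The cells were primary hepatocytes of male C57Bl/J mice. From 48 h after plating they were given SQ1 (100 µM in the labels) or 30 µM pravastatin for 48 h, or were left untreated as the control. SQ1, or squalestatin 1, blocks squalene synthase, and since squalestatins act at nanomolar doses its labelled dose may carry the wrong unit. Pravastatin inhibits HMG-CoA reductase, near the start of the mevalonate pathway. Each of 16 arrays measured RNA of treated and of control cells in 2 dyes, on 8 arrays for SQ1 and 8 for pravastatin, with the dyes swapped on 4 arrays of each drug. No vehicle group is among the samples analysed here, and the cells' purity is not given in the sources used here.

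SRF binds a DNA element called the CArG box and, with the MRTF co-activators, drives genes of actin filaments and contraction. MRTF is held in the cytoplasm by unpolymerised actin and is released when actin polymerises. YAP and its partner TAZ work through the TEAD factors on DNA and respond to cell shape and tension as well as to the Hippo kinases. In liver, hepatocytes in culture raise several YAP targets as they spread, and Acta2, Tagln and Cnn1 are better known from stellate cells that have become myofibroblasts and from vascular smooth muscle.

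Values below are log2 ratios of treated over control RNA with the dye effect of each gene removed, or log2 intensities of one channel, which compare samples for 1 probe and do not compare genes. Fold changes and their standard errors came from a limma fit over all 16 arrays. Genes with an adjusted p below 0.05 were called (Benjamini-Hochberg over 15053 genes). Each array had between 58.9% and 69.6% of its probes well above background in either channel. All 10 genes were well above background in every channel. The arrays of both drugs appear to share their untreated cultures, which is inferred because the series describes 8 control replicates in all. Over the 10 genes, control levels on SQ1 and pravastatin arrays of the same number correlated with a Pearson r between 0.83 and 0.98 over 8 numbers. The 2 drug comparisons are therefore not taken as independent and are given side by side.

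With SQ1, 6 of the 10 genes fell and none rose: Thbs1, Ankrd1, Cnn1, Ccn1, Actg2 and Tagln. Over all genes, 32.3% were called with SQ1, 16.5% lower and 15.8% higher. The median change of the 10 was -0.33 on the log2 scale, against -0.0022 over all genes. With pravastatin, 5 of the 10 fell (Cnn1, Myl9, Tagln, Acta2 and Actg2) and 2 rose (Ccn1 and Ccn2). Over all genes, 66.7% were called with pravastatin, 35.8% lower and 30.9% higher. The median change of the 10 was -0.20, against -0.01 over all genes. The falls with SQ1 were at most 1.47-fold, whereas pravastatin lowered Cnn1 by 3.53-fold and Myl9 by 2.40-fold. With SQ1, all 8 ratios lay below 0 for 4 of the 10 genes, and on 1 side of 0 for 23.4% of all genes. With pravastatin, all 8 lay below 0 for 4 genes and above 0 for 2, and on 1 side for 48.2% of all genes. As the 10 genes were chosen with earlier results of these data known, these counts and medians are descriptions only.

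**Figure D1:**
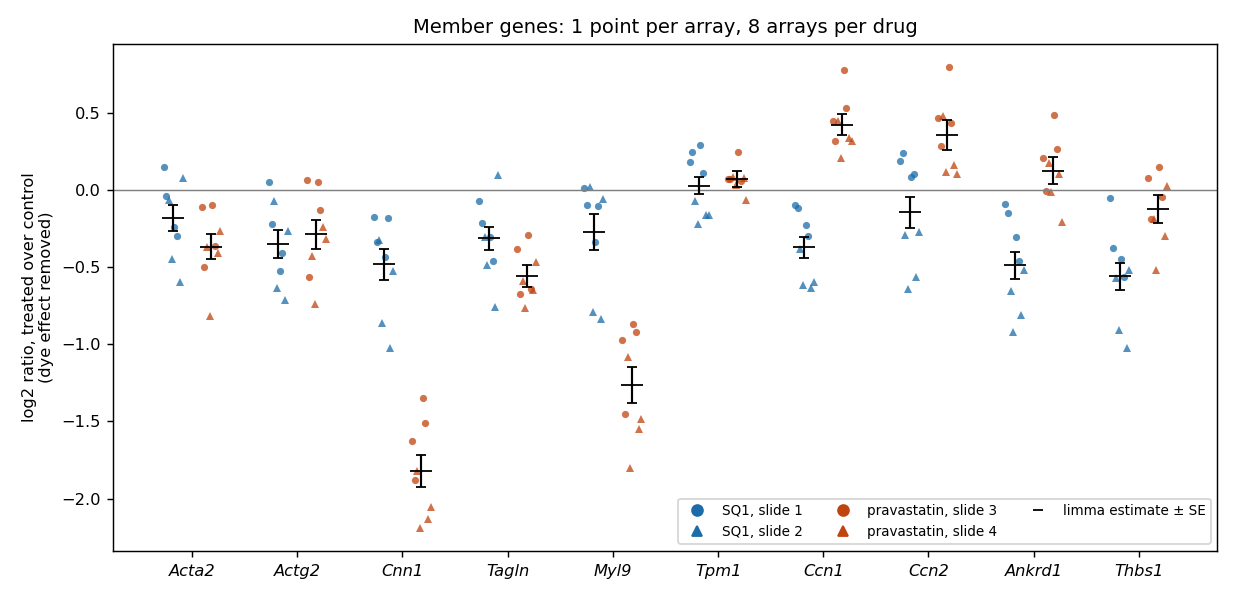
Log2 ratio of treated over control for each of the 10 genes (y axis, dye effect removed), SQ1 left and pravastatin right, 1 point per array, with circles and triangles for the slides of a drug; the black mark is the limma estimate and its bar the standard error. Cnn1 and Myl9 lie below all SQ1 arrays with pravastatin, and Ccn1 lies above 0 on 8 of 8 pravastatin arrays and below 0 on 8 of 8 SQ1 arrays. Of all genes, 48.2% had their 8 ratios on 1 side of 0 with pravastatin and 23.4% with SQ1.

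Cnn1 encodes calponin, an actin-binding protein of smooth muscle that restrains myosin. Its level was 7.34, 7.69 and 7.88 (lowest, median and highest log2 intensity) with pravastatin, against 8.88, 9.25 and 10.07 in the control channels of those arrays. The 2 groups did not overlap, which held for 20.3% of all genes with pravastatin. The pravastatin ratio ran between -2.19 and -1.35 on the 8 arrays, and the fitted change was -1.82 ± 0.10 (SE, limma, adjusted p = 2e-10). With SQ1 the level was 8.65, 9.07 and 9.36, against 9.01, 9.31 and 10.24 in its control channels. SQ1 and control channels overlapped, although every SQ1 array had a ratio below 0. The fitted change with SQ1 was -0.48 ± 0.10 (limma, adjusted p = 0.00183).

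Myl9 encodes a regulatory light chain of non-muscle and smooth muscle myosin, the protein whose phosphorylation starts contraction. Its level was 9.91, 10.41 and 10.61 with pravastatin, against 11.11, 11.53 and 12.15 in its control channels. Every pravastatin channel lay below every control channel. The change was -1.27 ± 0.12 (limma, adjusted p = 6.41e-08). With SQ1 the level was 10.88, 11.47 and 11.74, against 11.20, 11.53 and 12.47 in its control channels. Most SQ1 arrays lay close to 0 and replicates 4 and 7 lay far below the others, at -0.79 and -0.84. The fitted change of -0.27 ± 0.12 was not called (limma, adjusted p = 0.0852).

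The promoters of both genes are shown because these genes fell furthest with pravastatin and because SRF targets are usually recognised by CArG boxes. Both are RefSeq sequences on build GRCm38.p6, 300 bases from 250 before the transcription start to 50 from the start on. Myl9 lies on the + strand (chr2:156775214-156775513), as does Cnn1 (chr9:22099003-22099302). Capitals mark matches to the CArG box, or to a CArG box with 1 C or G in its core of A and T, on either strand (the element is its own reverse complement in form).
Myl9: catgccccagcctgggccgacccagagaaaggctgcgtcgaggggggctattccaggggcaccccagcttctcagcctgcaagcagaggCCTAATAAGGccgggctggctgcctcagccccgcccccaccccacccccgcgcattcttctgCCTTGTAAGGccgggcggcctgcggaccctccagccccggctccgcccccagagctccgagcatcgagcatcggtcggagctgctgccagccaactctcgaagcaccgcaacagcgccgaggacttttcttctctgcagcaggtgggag
Cnn1: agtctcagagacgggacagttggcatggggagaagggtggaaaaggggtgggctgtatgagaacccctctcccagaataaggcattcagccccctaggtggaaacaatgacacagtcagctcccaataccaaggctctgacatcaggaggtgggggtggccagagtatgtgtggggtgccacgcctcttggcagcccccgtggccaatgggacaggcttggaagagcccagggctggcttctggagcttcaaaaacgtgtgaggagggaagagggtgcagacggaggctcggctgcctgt
Myl9 held an exact CArG box, CCTAATAAGG, that begins 161 bases before the start, and CCTTGTAAGG, which has 1 G in its core, 99 bases before it. Cnn1 held neither in this window. Of 32851 promoters in the RefSeq table, 1.63% held an exact CArG box and 8.50% one with 1 C or G in its core. A match describes the letters only, and its absence covers only these 300 bases.

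Tagln encodes transgelin, an actin cross-linking protein and an early marker of contractile differentiation. Its level was 12.20, 12.34 and 12.50 with pravastatin, against 12.60, 12.96 and 13.17 in its control channels. Here too the groups did not overlap. The change was -0.56 ± 0.07 (limma, adjusted p = 4.58e-06). With SQ1 the level was 12.33, 12.68 and 12.78, against 12.62, 12.97 and 13.25 in its control channels. SQ1 and control channels overlapped, and 7 of 8 arrays were below 0, replicate 8 being the exception. The SQ1 change was -0.31 ± 0.07 (limma, adjusted p = 0.00386).

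Acta2 encodes smooth muscle α-actin, the usual marker of activated stellate cells. Its probe was printed on 10 spots of each array, whose log2 ratios had a median SD of 0.034. Its level was 12.64, 12.95 and 13.29 with pravastatin, against 12.95, 13.27 and 13.71 in its control channels. All 8 pravastatin ratios were below 0 although the levels overlapped, and the change was -0.37 ± 0.08 (limma, adjusted p = 0.000893). With SQ1 the level was 12.66, 13.08 and 13.40, against 12.93, 13.23 and 13.64 in its control channels. SQ1 arrays lay on both sides of 0, and the change of -0.18 ± 0.08 was not called (limma, adjusted p = 0.104). Actg2 encodes the γ-actin of enteric smooth muscle. Its level was 7.56, 8.09 and 8.44 with pravastatin, against 7.90, 8.36 and 8.63 in its control channels. The pravastatin change was -0.29 ± 0.09 (limma, adjusted p = 0.0118), with 6 of 8 arrays below 0. With SQ1 its level was 7.62, 7.83 and 8.45, against 7.89, 8.31 and 8.67 in its control channels. The SQ1 change was -0.35 ± 0.09 (limma, adjusted p = 0.00833), and treated and control levels overlapped for both drugs.

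The Acta2 promoter is shown because it carries 2 elements that depart from the CArG box by 1 letter. It lies on the - strand at chr19:34255324-34255623 (GRCm38.p6, RefSeq), and capitals mark those elements and GGAATG, a motif of TEAD factors.
Acta2: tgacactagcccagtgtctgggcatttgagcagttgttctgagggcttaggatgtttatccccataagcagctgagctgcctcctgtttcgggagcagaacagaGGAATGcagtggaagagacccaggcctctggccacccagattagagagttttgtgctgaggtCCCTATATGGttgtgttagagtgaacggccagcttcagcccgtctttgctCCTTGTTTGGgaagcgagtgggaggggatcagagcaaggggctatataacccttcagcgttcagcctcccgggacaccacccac
The elements CCCTATATGG and CCTTGTTTGG begin 84 and 34 bases before the start. GGAATG begins 146 bases before it and overlaps neither.

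**Figure D2:**
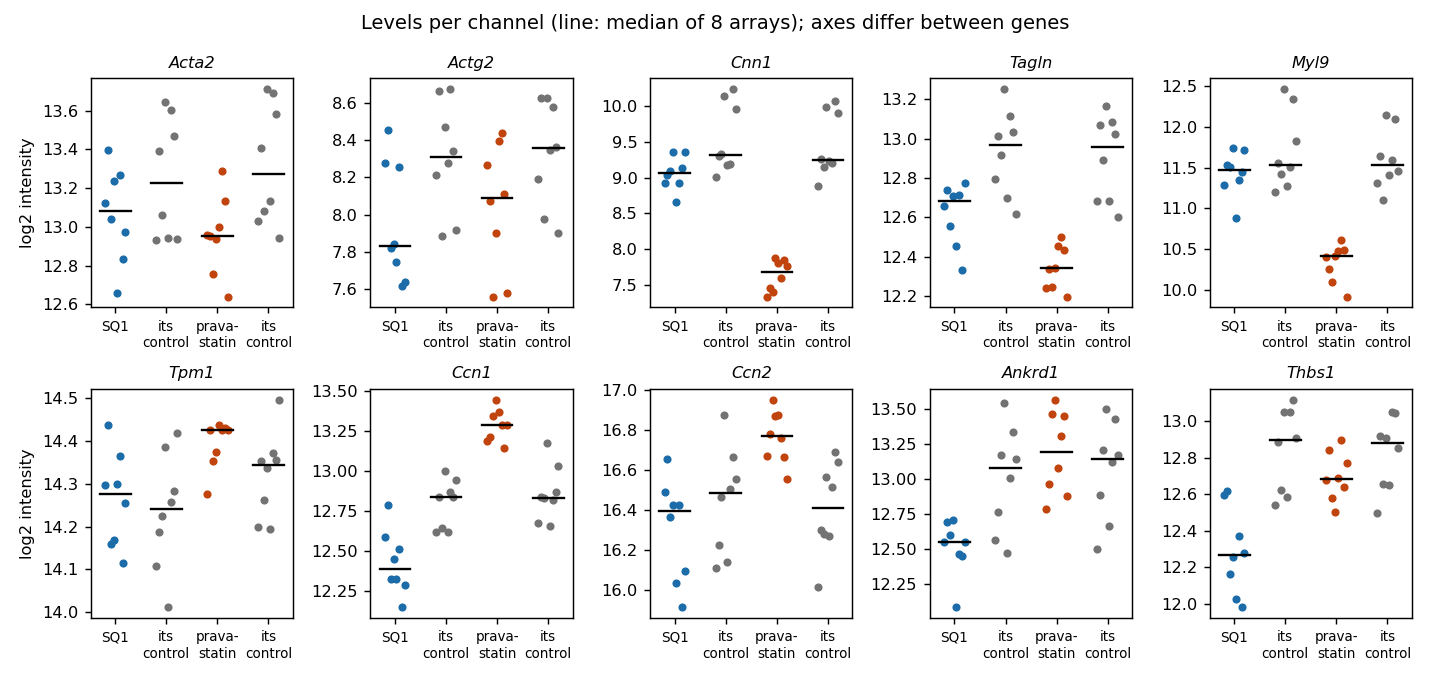
Log2 intensity of each of the 10 genes in each channel (y axis, which differs between panels), for SQ1, its control channels, pravastatin and its control channels; points are 8 arrays and lines their medians. Pravastatin and control channels do not overlap for Cnn1, Tagln and Myl9, which held for 20.3% of all genes. SQ1 and control channels overlap for all 10 genes, and did not for 3.04% of all genes. The control channels of both drugs cover similar ranges.

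Tpm1 encodes α-tropomyosin, which winds along actin filaments and is spliced into many isoforms from more than one promoter. Its brightest probe read 14.28, 14.43 and 14.44 with pravastatin, against 14.19, 14.34 and 14.50 in its control channels, and the change of 0.07 ± 0.05 was not called (limma, adjusted p = 0.251). With SQ1 it read 14.12, 14.28 and 14.44, against 14.01, 14.24 and 14.42 in its control channels, and the change was 0.03 ± 0.05 (limma, adjusted p = 0.737). Treated and control channels overlapped throughout. The 5 probes of the gene did not move alike, so each was also tested by itself, when 63.8% of 25826 probes were called with pravastatin and 29% with SQ1. The probe for NM_001164255 fell by 1.00 ± 0.10 with pravastatin (limma, adjusted p = 1.69e-07), and its 8 ratios ran between -1.43 and -0.64. The 2 probes for NM_001164248 rose by 0.18 ± 0.06 and 0.16 ± 0.05 with pravastatin (limma, adjusted p = 0.015 and 0.0141). Their rise lay mainly on 1 slide of the drug, as given below. None of the 5 was called with SQ1. The mean over the 5 probes was -0.12 with pravastatin (limma, adjusted p = 0.00108), so that both the sign and the call for Tpm1 depend on the probe. Differences among these probes may be of isoforms or of the probes themselves, which was not tested.

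**Figure D3:**
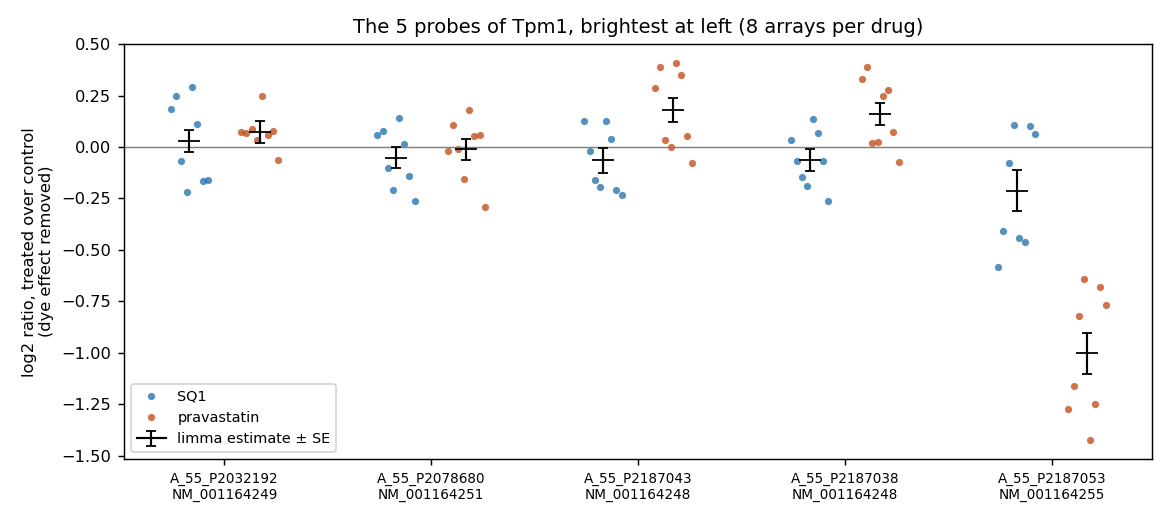
Log2 ratio of treated over control (y axis, dye effect removed) for the 5 probes of Tpm1, brightest at left, with SQ1 left and pravastatin right of each probe; points are 8 arrays, black marks limma estimates with standard errors. The probe for NM_001164255 lies between -1.43 and -0.64 with pravastatin, below every array of the other 4 probes, and the 2 probes for NM_001164248 reach 0.41 and 0.39.

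Ccn1 encodes a matricellular protein and is among the most used YAP target genes. Its level was 12.14, 12.39 and 12.79 with SQ1, against 12.62, 12.84 and 13.001 in its control channels. All 8 SQ1 ratios were below 0 although the levels overlapped. The change was -0.37 ± 0.07 (limma, adjusted p = 0.000576). With pravastatin its level was 13.15, 13.29 and 13.45, against 12.65, 12.83 and 13.18 in its control channels. All 8 pravastatin ratios were above 0, and the levels overlapped only at their edge. The change was 0.43 ± 0.07 (limma, adjusted p = 3.48e-05).

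Ankrd1 encodes a nuclear ankyrin repeat protein of stretched muscle and is another standard YAP target. Its level was 12.08, 12.55 and 12.71 with SQ1, against 12.47, 13.08 and 13.54 in its control channels. Every SQ1 ratio was below 0, and the change was -0.49 ± 0.09 (limma, adjusted p = 0.000418). With pravastatin it was 12.79, 13.19 and 13.57, against 12.50, 13.15 and 13.50 in its control channels. The groups covered nearly the same range, and the change of 0.13 ± 0.09 was not called (limma, adjusted p = 0.206). Thbs1 encodes thrombospondin, a secreted glycoprotein that can activate TGF-β. It had the largest fall of the 10 with SQ1, at 11.98, 12.27 and 12.62, against 12.54, 12.89 and 13.12 in its control channels. The change was -0.56 ± 0.09 (limma, adjusted p = 0.00016), with 8 of 8 ratios below 0 (7 of 8 before the dye effect was removed). With pravastatin it was 12.50, 12.68 and 12.89, against 12.49, 12.88 and 13.05 in its control channels. Pravastatin and control channels overlapped widely, and the change of -0.12 ± 0.09 was not called (limma, adjusted p = 0.235).

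Ccn2 encodes connective tissue growth factor, a fibrogenic matricellular protein. Its level was 16.56, 16.77 and 16.95 with pravastatin, against 16.01, 16.41 and 16.69 in its control channels. All 8 ratios were above 0 and the levels overlapped. Before the dye effect was removed, 6 of these ratios were above 0 and 2 below. The change was 0.36 ± 0.10 (limma, adjusted p = 0.00431). With SQ1 it was 15.91, 16.40 and 16.66, against 16.11, 16.49 and 16.87 in its control channels. The SQ1 arrays were split, with 4 above and 4 below 0, and the change of -0.14 ± 0.10 was not called (limma, adjusted p = 0.29). Before the dye effect was removed, 2 SQ1 arrays were above 0 and 6 below.

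The promoters of Ccn1 and Ankrd1 are shown because TEAD factors bind the letters GGAATG, or CATTCC on the other strand, which capitals mark. Both lie on the - strand (GRCm38.p6, RefSeq), Ccn1 at chr3:145649936-145650235 and Ankrd1 at chr19:36119795-36120094.
Ccn1: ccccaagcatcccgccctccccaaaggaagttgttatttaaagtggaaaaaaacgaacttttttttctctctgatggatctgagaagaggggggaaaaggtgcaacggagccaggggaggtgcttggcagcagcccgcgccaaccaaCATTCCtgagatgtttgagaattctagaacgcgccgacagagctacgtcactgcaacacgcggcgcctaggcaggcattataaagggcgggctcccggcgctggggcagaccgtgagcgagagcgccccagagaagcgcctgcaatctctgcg
Ankrd1: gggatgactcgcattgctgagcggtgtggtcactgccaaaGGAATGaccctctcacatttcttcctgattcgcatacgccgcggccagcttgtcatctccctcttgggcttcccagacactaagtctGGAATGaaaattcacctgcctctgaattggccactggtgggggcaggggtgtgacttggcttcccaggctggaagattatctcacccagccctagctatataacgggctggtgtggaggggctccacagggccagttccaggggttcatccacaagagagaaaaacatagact
Ccn1 held CATTCC 103 bases before the start, and Ankrd1 held GGAATG 210 and 123 bases before it. Promoters were in the table for 6 of the 10 genes, and 4 of these held the motif on either strand (Acta2 and Tpm1 as well), against 14.7% of the 32851 promoters. Of the same 6 promoters, 1 held an exact CArG box (Myl9) and 2 held one with 1 C or G in its core (Acta2 and Myl9). As the genes were chosen as known targets, these counts are descriptions only. The TEAD motif is short, and a match is not a binding site.

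The drugs were also compared directly, as the SQ1 change minus the pravastatin change. With the doses different and that of SQ1 uncertain, this compares the treatments as given. The drugs lay on different slides, so drug and slide cannot be told apart in this comparison. Of the 10 genes, 6 differed, 2 with SQ1 higher and 4 with SQ1 lower, against 53.2% of all genes (29.3% higher and 23.9% lower). SQ1 was above pravastatin for Cnn1 by 1.34 ± 0.15 (limma, adjusted p = 1.17e-06) and for Myl9 by 0.99 ± 0.16 (limma, adjusted p = 9.51e-05). Cnn1 had thus fallen less with SQ1, and Myl9, called lower with pravastatin, was not called with SQ1. SQ1 was below pravastatin for Ccn1, at -0.79 ± 0.10 (limma, adjusted p = 3.98e-06), and for Ankrd1, at -0.61 ± 0.12 (limma, adjusted p = 0.000484). It was also below for Ccn2, at -0.50 ± 0.14 (limma, adjusted p = 0.00632), and Thbs1, at -0.44 ± 0.13 (limma, adjusted p = 0.00768). All 4 genes of the YAP group therefore lay lower with SQ1 than with pravastatin. Ccn2 also differed between the 2 slides of SQ1, by 0.60 ± 0.11. The ratios of the drugs did not overlap on any array for Cnn1, Myl9 and Ccn1, which held for 20.8% of all genes. Tagln differed by 0.24 ± 0.10, which was not called (limma, adjusted p = 0.0593) but was called with the replicate number as a block (limma, adjusted p = 0.0091). Acta2 (0.18 ± 0.12), Actg2 (-0.06 ± 0.13) and Tpm1 (-0.04 ± 0.08) were not called, which does not show that the drugs acted alike on them.

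The 10 genes moved together from array to array within a drug. Over the 45 pairs of genes, the Pearson r of their ratios over 8 arrays had a median of 0.76 with SQ1 and 0.77 with pravastatin, and every pair was above 0. Over all gene pairs the median was 0.009 with SQ1 and 0.015 with pravastatin. The points share their arrays and control cultures, so the correlations describe these arrays only. All 10 genes had their lowest SQ1 ratio in replicate 4 (3 genes) or replicate 7 (7 genes). With pravastatin, 7 genes had their lowest ratio in replicate 4 and 9 had their highest in replicate 5. The control channel was at its highest in replicate 4 or 7 for 8 genes on SQ1 arrays and for 7 on pravastatin arrays. The ratio contains the control level, so low ratios and high control levels are tied by construction. The SD was larger over control than over treated channels for 7 genes with SQ1 and 9 with pravastatin. These counts of replicates and SDs were not set against all genes and describe these arrays only. With replicates 4 and 7 of both drugs left out, a choice made after the values were seen, 5 genes were called with SQ1 and 7 with pravastatin. Actg2 was the SQ1 call lost, at -0.24 (limma, adjusted p = 0.059). Over all 15053 genes, the fit without these replicates called 4469 with SQ1 and 9780 with pravastatin.

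For Acta2, the other genes with the most similar ratios over all 16 arrays were Tgfb3 (Pearson r = 0.93), Tagln (r = 0.92) and Dcdc2a (r = 0.91). For Ccn2 they were Filip1l (r = 0.98), Igfbp3 (r = 0.96) and Ankrd1 (r = 0.96). Tagln and Ankrd1 are themselves among the 10. Tgfb3, a TGF-β ligand, changed by -0.22 ± 0.05 with SQ1 and -0.43 ± 0.05 with pravastatin (limma, adjusted p = 0.00276 and 1.08e-06).

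The arrays of a drug lay on 2 slides, with replicates 1, 2, 5 and 6 on one and 3, 4, 7 and 8 on the other, so slide and culture cannot be told apart. The 10 genes moved together over arrays and the drugs appear to share control cultures, so their slide differences are not taken as independent. Replicates 3, 4, 7 and 8 lay on slide 2 for SQ1 and on slide 4 for pravastatin. Over all genes, the median estimate with SQ1 was -0.005 on slide 1 and 0.0037 on slide 2. With pravastatin it was -0.017 on slide 3 and -0.0077 on slide 4. For all 10 genes, each by its brightest probe, and both drugs the estimate was lower on the slide of replicates 3, 4, 7 and 8. The share of all genes that did so is not given. The Tpm1 probe for NM_001164255 went the other way: its SQ1 ratios ran from -0.58 to -0.41 on slide 1 and from -0.08 to 0.11 on slide 2, and its pravastatin ratios from -1.43 to -1.16 on slide 3 and from -0.82 to -0.64 on slide 4. With pravastatin, the 2 Tpm1 probes for NM_001164248 had median ratios of 0.37 and 0.30 on slide 3 and of 0.017 and 0.023 on slide 4. By the brightest probe, the slide difference was called for Tpm1, Ccn1, Ccn2 and Ankrd1 with SQ1, where 12.3% of all genes were called. It was called for Cnn1 with pravastatin, where 21.8% were. Ccn2 was at 0.15 ± 0.08 on slide 1 of SQ1 and at -0.44 ± 0.08 on slide 2, a difference of 0.60 ± 0.11 (limma, adjusted p = 0.00462). Tpm1 was at 0.21 ± 0.04 and -0.15 ± 0.04 on these slides (limma, adjusted p of the difference = 0.00213). Both genes thus took opposite signs on the 2 slides of SQ1. Ccn1 was at -0.18 ± 0.06 and -0.56 ± 0.06, and Ankrd1 at -0.25 ± 0.08 and -0.72 ± 0.08, below 0 on each. Within slide 1 of SQ1, 4 genes were called lower and 1 higher (19.5% and 15.3% of all genes), and within slide 2, 9 were called lower (12.9%). Cnn1 with pravastatin was at -1.59 ± 0.10 and -2.05 ± 0.10 on its slides. Within these, 4 genes were called lower and 4 higher on slide 3 (35.2% and 29.1%), and 6 lower and 2 higher on slide 4 (30.4% and 27%). With median centring in place of loess, none of the slide differences was called. With slide as a random block, Actg2 and Tagln were no longer called with SQ1 (limma, adjusted p = 0.0904 and 0.0669) nor Actg2 with pravastatin (limma, adjusted p = 0.0834), while their fold changes stayed at -0.35, -0.31 and -0.29. A random block for scan day left 2 genes called with SQ1, Ankrd1 and Thbs1. Slide terms in the fit, added after seeing the data, gave 7 genes called lower with SQ1. Myl9 was gained (limma, adjusted p = 0.0401), and Actg2 and Tagln stayed called (limma, adjusted p = 0.00412 and 0.00295). Over all genes, that fit called 6163 with SQ1 in place of 4865.

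**Figure D4:**
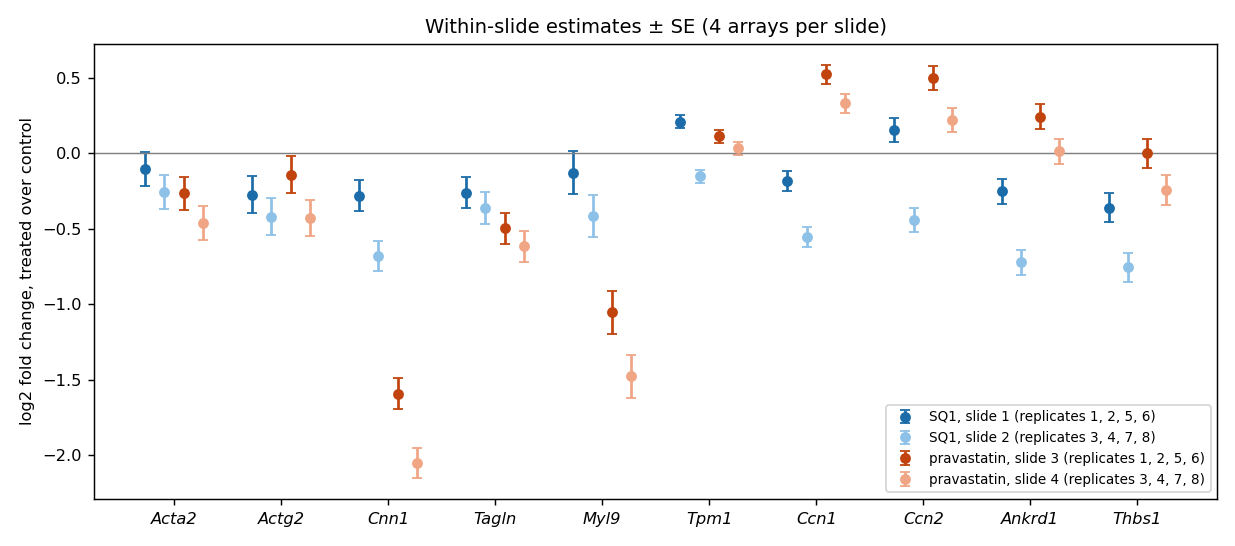
Log2 fold change of treated over control (y axis) estimated within each slide, 4 arrays per slide, with limma standard errors as bars, SQ1 in blue and pravastatin in orange. For each gene, by its brightest probe, and drug the slide of replicates 3, 4, 7 and 8 lies lower, and Ccn2 and Tpm1 with SQ1 lie on opposite sides of 0 on slides 1 and 2. The median over all genes was -0.005, 0.0037, -0.017 and -0.0077 on slides 1 to 4.

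Among the factors themselves, Srf, the factor that binds CArG boxes, was at 0.01 ± 0.04 with SQ1 and 0.04 ± 0.04 with pravastatin, neither called (limma, adjusted p = 0.864 and 0.391). The co-activator gene Mrtfa was not called with either drug, at -0.12 ± 0.05 with SQ1 and 0.05 ± 0.05 with pravastatin, whereas Mrtfb fell by 0.37 ± 0.04 with pravastatin (limma, adjusted p = 4.3e-07).

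Of 21 other SRF-responsive genes tested (22 listed), 6 fell and 2 rose with SQ1, which is 38.1% called against 32.3% of all genes. With pravastatin 9 fell and 7 rose, 76.2% against 66.7% of all genes, so the counts lay near those over all genes. Pravastatin lowered the striated muscle actins Actc1 (-1.49 ± 0.06) and Acta1 (-1.37 ± 0.12). It raised Vcl, which encodes the focal adhesion protein vinculin (0.63 ± 0.05), and Flna, which encodes the actin cross-linker filamin A (0.53 ± 0.08). SQ1 changed the same 2 adhesion genes by 0.19 ± 0.05 and 0.24 ± 0.08, and lowered Fos (-0.40 ± 0.05) and Actc1 (-0.37 ± 0.06). The actin proteins are near-identical, and how far the probes of their genes cross-hybridise was not tested.

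Among 17 genes of the Hippo pathway and TEAD factors, 4 rose and none fell with SQ1, which is 23.5% called against 32.3% of all genes. With pravastatin 9 rose and 3 fell, 70.6% against 66.7% of all genes. Yap1 fell by 0.10 ± 0.03 with pravastatin (limma, adjusted p = 0.00206) and was at -0.07 ± 0.03 with SQ1, not called. Wwtr1, which encodes TAZ, rose by 0.11 ± 0.04 with pravastatin (limma, adjusted p = 0.0301). Pravastatin raised Tead2 (0.65 ± 0.10) and Tead1 (0.44 ± 0.08) and lowered Amot, which encodes a YAP-binding junction protein (-0.78 ± 0.04), and Tead3 (-0.18 ± 0.04). SQ1 raised the Hippo kinase adaptor Mob1b (0.19 ± 0.03) and the upstream regulator Nf2 (0.16 ± 0.03). Of 18 other YAP-responsive genes, 9 rose and 1 fell with pravastatin, which is 55.6% called against 66.7% of all genes (30.9% higher and 35.8% lower). With SQ1 3 rose and 4 fell, 38.9% against 32.3% of all genes. Ptpn14, a phosphatase that binds YAP, rose with both, by 1.91 ± 0.05 with pravastatin and 0.84 ± 0.05 with SQ1. Fjx1 rose by 0.85 ± 0.14 with pravastatin and fell by 0.44 ± 0.14 with SQ1. F3, which encodes tissue factor, fell with SQ1 (-0.64 ± 0.10) and was at -0.11 with pravastatin, not called. Nuak2 fell with both, by 0.22 ± 0.04 with pravastatin and 0.32 ± 0.04 with SQ1. The median change of this list was 0.14 with pravastatin and 0.03 with SQ1, against -0.011 and -0.0022 over all genes.

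**Figure D5:**
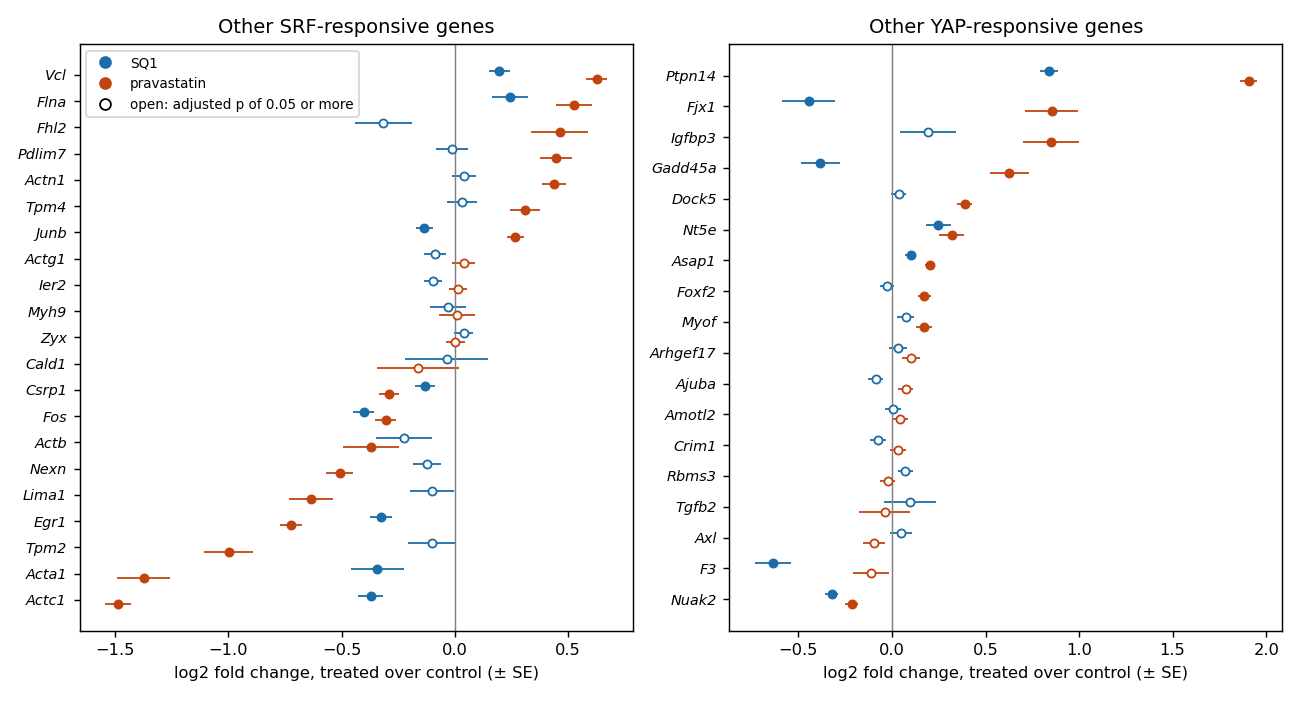
Log2 fold change of treated over control (x axis) with limma standard errors for the other SRF-responsive genes (left) and other YAP-responsive genes (right), 1 gene per row, SQ1 in blue above pravastatin in orange; filled points were called and open points were not. Actc1 and Acta1 lie lowest at left with pravastatin, and Ptpn14 lies highest at right with both drugs.

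Cultures of hepatocytes can hold other liver cells, and in these bulk samples fewer cells of a type cannot be told apart from less RNA per cell. All 10 hepatocyte markers were well above background in every channel, and so were 13 of 14 stellate cell and fibroblast markers on the arrays of each drug. With pravastatin all 10 hepatocyte markers fell (median change -1.38), and with SQ1 3 fell. Counts of markers called are to be read against 66.7% of all genes called with pravastatin and 32.3% with SQ1. Of the stellate cell and fibroblast markers, 4 fell and 2 rose with pravastatin, and 1 fell and 3 rose with SQ1, which is 42.9% and 28.6% called, with medians of -0.09 and -0.01. Their summed level ran from 16.18 to 16.74 with pravastatin, against 16.22 to 16.84 in its control channels, and from 16.03 to 16.69 with SQ1, against 16.10 to 16.78 in its control channels. Of 6 smooth muscle markers, 5 were tested, with 1 lower and 2 higher with pravastatin and none called with SQ1, and Myocd was well above background in no channel. Their summed level ran from 11.71 to 12.11 with pravastatin, against 11.56 to 11.96 in its control channels, and from 11.43 to 11.74 with SQ1, against 11.48 to 11.90 in its control channels. Kupffer cell markers fell for 6 of 6 tested with pravastatin and 3 of 6 with SQ1. Endothelial markers fell for 4 and rose for 3 of 8 with pravastatin and rose for 4 with SQ1. Cholangiocyte markers fell for 3 of 6 with each drug, and 1 rose with pravastatin. Of 4 mesothelial markers, 2 were tested, 1 of which rose with pravastatin, and Upk3b and Upk1b were well above background in no channel. The part of cell composition in the changes of the 10 genes was not tested.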

How the data were processed

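Scanner files of 16 Agilent 44K arrays were used. Per the file headers they were made with Agilent Feature Extraction 11.0.1.1 and hold median spot and background intensities, which the authors left unnormalized, and a log10 ratio of background-subtracted, dye-normalized signals. The deposited series table holds log2 values that follow that ratio turned to treated over control (r over probes between 0.742 and 0.999). The array design is on an older build than the annotation, so no probe coordinates are given.

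limma 3.58.1 in R 4.3.3 was used for normexp background correction (offset 50) and within-array loess, and spots of a probe were averaged. Outlier flags were removed. Probes were kept if well above background on at least 4 treated channels of a drug or 8 control channels, with a ratio on at least 7 arrays per drug. Of 39429 probes, 27234 were named through RefSeq accessions. A gene is its brightest probe. Ratios were fitted with a coefficient per drug, signed by dye orientation, and a dye term (13 residual degrees of freedom), two-sided, with Benjamini-Hochberg adjustment over 15053 genes. Levels per channel were scaled between arrays by Aquantile. The fit was tested on simulated data. The number of arrays limits the precision, and p-values measure spread between arrays described as biological replicates.

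Replicate numbers may pair the samples of the drugs. With drug and dye effects removed, ratios of the same number correlated with r between 0.22 and 0.72 in 8 of 8 pairs. Only 3 numbers correlated best with their own, so this does not settle the pairing. Genes named are the 10 members, by rule the called genes with the largest rise and fall of each list (2 each), fixed regulators, and the 3 genes most like Acta2 and like Ccn2. One list and some genes that the rule names are not reported here. Members and lists were chosen with earlier results of these data known. Alternatives were background correction, normalization, the deposited ratios, the filter, averaging of probes, blocks, array weights and left-out arrays. Slide terms and leaving out replicates 4 and 7 were added after seeing the data.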

Additional observations from a re-analysis of the deposited data

How the results depend on the processing

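The count of the 10 genes called with SQ1 was 6 in the fit reported. A random block for scan day left 2, as Actg2, Ccn1, Cnn1 and Tagln were lost (limma, adjusted p = 0.237, 0.0573, 0.133 and 0.132). One scan day held a single slide, of pravastatin arrays, and the cause was not tested. With each array left out in turn, 6 to 7 genes were called with SQ1, 7 with pravastatin and 6 to 7 for the difference between drugs. Acta2 was gained with SQ1 without SQ1 replicate 1, at -0.23 (limma, adjusted p = 0.0489). The replicate number as a block called Tagln between drugs, at 0.24 (limma, adjusted p = 0.0091), and changed no other call among the 10. The number of genes that differed between slides was 5, and 0 with median centring. Median centring also ended the calls of Tagln with SQ1 (limma, adjusted p = 0.225) and Acta2 with pravastatin (limma, adjusted p = 0.0705), and turned Thbs1 with pravastatin to 0.0145. It gained Ankrd1 (0.27, limma, adjusted p = 0.0384) and Tpm1 (0.23, limma, adjusted p = 0.0419) with pravastatin, so that 4 genes were called higher and 4 lower in place of 2 and 5. Over all genes it called 2076 with SQ1 in place of 4865, 71.2% of them higher in place of 48.8%. With pravastatin 61.0% of calls were higher in place of 46.3%, and 56.8% with the deposited Agilent ratio. It called 3696 genes between drugs in place of 8004, and 44.7% of calls between drugs were higher with the Agilent ratio in place of 55.1%. Random blocks brought the SQ1 calls over all genes to 2545 (slide) and 2236 (scan day). Signs turned for Tpm1 with the mean over its probes (-0.0728 with SQ1, -0.12 with pravastatin and 0.0469 between drugs), within slide 2 (-0.153), without SQ1 replicate 2 (-0.00567) or 5 (-0.0129; with other arrays left out up to 0.0661), and between drugs with replicates 4 and 7 left out (0.0237). They also turned for Ccn2 with SQ1 within slide 1 (0.155) and with replicates 4 and 7 left out (0.00932), and for Actg2 between drugs with scan day as a block (0.015). The causes were not tested. The falls of Cnn1, Myl9 and Tagln and the rises of Ccn1 and Ccn2 with pravastatin, and the falls of Ankrd1 and Thbs1 with SQ1, were called under all alternatives run. Background handling moved some sizes: Cnn1 with pravastatin was at -2.02 with no background correction and -2.24 with the Agilent ratio, and Actg2 with SQ1 at -0.41 and -0.44.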
